A study of Mus musculus with 7 samples.

Results

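The genes described here encode the ATP-sensitive potassium (KATP) channel of the pancreatic β-cell and other potassium channels that hold its membrane potential negative or restore it after depolarisation. They are Abcc8, Kcnj11, Kcnh6, Kcnk16, Kcnk3, Kcnma1 and Kcnj6, taken by name for these roles. All 7 were among the 24035 genes of the count table, and all 7 passed the filter on low counts that left 12354 genes to test. RNA-seq reads had been counted per gene in β-cells of C57BL/6N mice (C57BL/6NCrl in the study's methods), with no engineered allele named in the labels, that were given either chow (CD) or a high fat diet (HFD) for 2 days from 12 weeks of age. There were 4 CD libraries (replicates 1 to 4) and 3 HFD libraries (replicates 2 to 4), each standing for a separate mouse. The cells came from dispersed islets and were separated from α-cells by FACS on a zinc-sensitive dye (ZIGIR) and a Cy5-labelled exendin-4, a ligand of the GLP-1 receptor. The 2-day feeding experiment of the study is described for male mice, and the labels of the sequenced samples give no sex. The question was whether the transcripts of these channels differed between the diets when the diet had been short, in a study that asked how β-cells first respond to HFD.

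A resting β-cell is kept negative by potassium that leaves through open KATP channels. When glucose is metabolised, the rise of ATP relative to ADP closes these channels, the membrane depolarises, voltage-gated calcium channels open and insulin is released. The channel is an octamer of Kir6.2 pore subunits, encoded by Kcnj11, and SUR1 regulatory subunits, encoded by Abcc8. SUR1 is an ABC protein that binds nucleotides and is the target of sulphonylurea drugs, and loss or gain of function in either gene causes hyperinsulinism or diabetes in people. The other potassium channels described here carry background currents (Kcnk16, Kcnk3), repolarise the cell after an action potential (Kcnh6, Kcnma1) or open downstream of inhibitory receptors (Kcnj6).

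The feature that makes 6 of these 7 proteins potassium channels is the selectivity filter, a short loop whose glycine, aromatic and glycine residues line the narrowest part of the pore. Its coding sequence is shown because it is what the pore genes share and what Abcc8 lacks. Each stretch is 33 bases from the GENCODE M21 annotation of GRCm38 (the assembly mm10), read 5′ to 3′ in the sense of the gene, with the 3 codons of the glycine, aromatic and glycine residues in capitals. Two-pore-domain (K2P) genes such as Kcnk16 and Kcnk3 encode a filter in each of their pore domains, of which the first is shown for Kcnk16 and both for Kcnk3.
Kcnj11: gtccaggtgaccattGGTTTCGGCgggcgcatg
Kcnj6: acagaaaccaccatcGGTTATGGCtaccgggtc
Kcnh6: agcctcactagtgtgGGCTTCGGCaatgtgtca
Kcnma1: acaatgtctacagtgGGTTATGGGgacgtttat
Kcnk16, first pore domain: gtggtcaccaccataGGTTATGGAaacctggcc
Kcnk3, first pore domain: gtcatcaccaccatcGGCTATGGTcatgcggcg
Kcnk3, second pore domain: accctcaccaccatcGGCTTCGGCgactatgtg
The aromatic codon was for phenylalanine in 3 of the 7 stretches shown (Kcnj11, Kcnh6 and the second pore domain of Kcnk3) and for tyrosine in the other 4. The inward rectifiers Kcnj11 and Kcnj6 thus differed at this codon, and so did the first and second pore domains within Kcnk3. The filter was found by its letters in the translation of each gene's longest coding sequence, so the choice of transcript sets the residue numbers. The letters sought were threonine or serine, any residue, then the glycine, aromatic and glycine residues. In this numbering the filter begins at the threonine or serine, ahead of the codons in capitals. It began at residue 130 of 390 in Kcnj11, 154 of 425 in Kcnj6, 476 of 950 in Kcnh6 and 352 of 1242 in Kcnma1. In the K2P genes it began at residue 108 of 292 in Kcnk16 (first pore domain) and at residues 93 and 199 of 409 in Kcnk3.

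SUR1 has no such filter, and what is shown for Abcc8 are the phosphate-binding loops (Walker A motifs) of its nucleotide-binding domains, through which it senses ATP and ADP. The capitals mark the codons of the Walker A motif.
Abcc8, first nucleotide-binding domain: gtgGGGCAGGTGGGCTGCGGCAAGTCCtcg
Abcc8, second nucleotide-binding domain: tgcGGCCGCACAGGCAGTGGGAAGTCCtcc
The first stretch lies at chr7:46135540-46135569 in exon 16 of 39, and its motif begins at residue 713 of 1588. The second stretch lies at chr7:46107278-46107307 in exon 34, and its motif begins at residue 1385. Both are on the minus strand.

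The KATP genes are neighbours. Abcc8 spans chr7:46104523-46180033 and Kcnj11 spans chr7:46093953-46100764, both on the minus strand and 3758 bases apart. The Kcnj11 filter lies in the single exon of the transcript chosen here, 1 of 5 annotated, at chr7:46099487-46099519. Kcnh6 lies at chr11:106008124-106034549 on the plus strand with its filter in exon 6 of 13 (chr11:106019067-106019099). Kcnk16 lies at chr14:20261376-20269199 on the minus strand, and the junction of exons 2 and 3 of 5 divides its first filter stretch. Kcnk3 lies at chr5:30588170-30625271 on the plus strand, its first filter stretch is divided by the junction of its 2 exons, and the second is in exon 2 (chr5:30622193-30622225). Kcnma1 spans chr14:23289431-24014491 on the minus strand with the filter in exon 8 of 31 (chr14:23528404-23528436). Kcnj6 spans chr16:94748636-94997701 on the minus strand with the filter in exon 3 of 4 (chr16:94832768-94832800).

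The libraries held 10559175 to 22557957 counts. Insulin transcripts (Ins1 and Ins2) took 27.7% to 30.9% of them, and each of 10 β-cell markers was counted in every library. In CPM, the count scaled to a fixed library total, the β-cell markers summed to 301000–314000 in CD libraries and 322000–333000 in HFD libraries. All HFD libraries were thus above all CD libraries in this sum, most of which was Ins1 and Ins2. The 7 α-cell markers summed to 352–615 CPM (CD) and 282–428 CPM (HFD), with Irx1 and Irx2 at 0 in at least 1 library each. The 4 δ-cell markers summed to 374–1100 and 383–576, and the 8 acinar markers to 59.1–2830 and 0.947–2140. The 2 PP-cell markers (Ppy and Pyy) summed to 129–373 and 146–184, and the 5 ductal markers to 183–272 and 172–259. The 5 macrophage markers in the table summed to 46.5–72.4 and 30.3–48.1, and the 5 glial and neuronal markers to 48.2–71.2 and 59.5–97.7. Of these, 1 ductal, 2 macrophage and 1 glial or neuronal marker were counted in every library. The 5 endothelial markers reached at most 1.28 CPM and the 6 stellate markers at most 2.51. HFD replicate 3 stood apart from the rest. It had a count for 9627 genes against 12484 to 14600 in the other libraries, and of 9443 genes for which the remaining 6 libraries each held 50 counts or more, 807 (8.55%) were at 0 in it. Across all genes tested, the median log2 fold change of HFD over CD was −0.0776, and values below are not corrected for this shift. Log2 fold changes, their standard errors (SE), 95% intervals and two-sided p-values come from edgeR's quasi-likelihood test, with Benjamini-Hochberg adjustment over all 12354 genes.

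By that test 0 of the 12354 genes passed an adjusted p of 0.05 (0.0%), and 713 (5.77%) had an unadjusted p under 0.05. By DESeq2 137 genes passed the adjusted threshold, with 0 of these 7 among them. Of the 7 channel genes, 0 passed the adjusted threshold, and Abcc8 and Kcnk3 had an unadjusted p under 0.05, both lower on HFD, where 2.91% of all genes tested were lower with such a p. The same 2 of 7 had every HFD library below every CD library, which held for 5.37% of all genes tested. The fold changes were below 0 for 5 of the 7 and above 0 for Kcnk16 and Kcnj6, with a median of −0.0851 beside the −0.0776 of all genes. The Abcc8 and Kcnk3 differences are therefore values of single genes that did not pass correction for the number of genes tested.

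**Figure D1:**
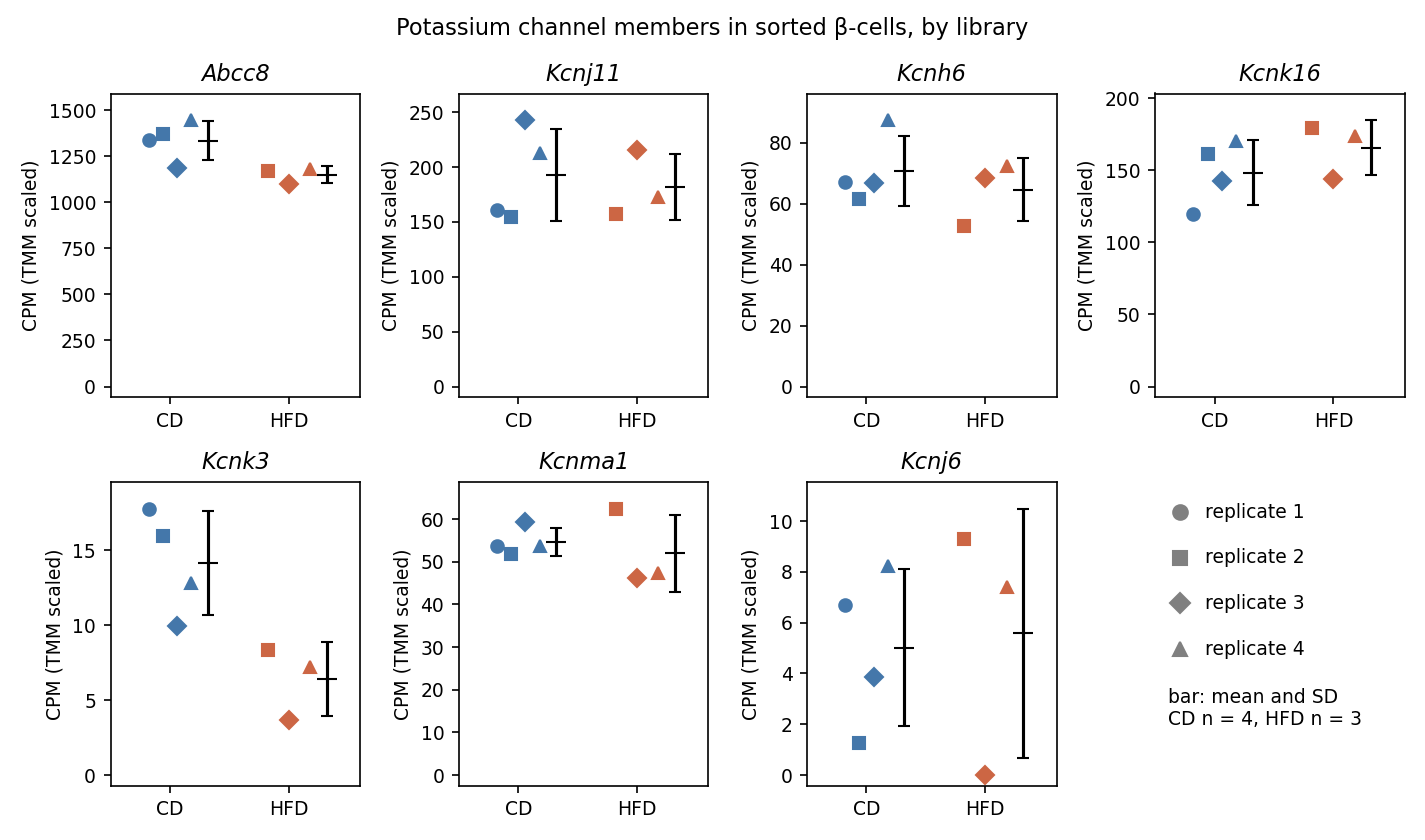
Level of each of the 7 channel genes in each library, in CPM scaled by TMM on a linear axis that starts at 0, with CD in blue, HFD in red and a marker shape for each replicate number. Bars give the mean and SD (CD n = 4, HFD n = 3). The groups do not overlap for Abcc8 and Kcnk3, and for Kcnj6 HFD replicate 3 is at 0.

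Abcc8, the SUR1 subunit, had the highest level of the 7. In CPM scaled by TMM it was at 1338, 1369, 1189 and 1447 in CD replicates 1 to 4, and at 1172, 1098 and 1183 in HFD replicates 2 to 4. Each HFD library was below the lowest CD library, replicate 3, but only by a narrow margin. The CD mean was 1336 ± 108.2 CPM (SD, n = 4) and the HFD mean 1151 ± 46.3 (SD, n = 3). The log2 fold change was −0.215 (SE 0.0862, interval −0.409 to −0.0216, edgeR quasi-likelihood adjusted p = 0.854), a ratio of 0.861 with an interval of 0.753 to 0.985. The separation of the groups depended on the scaling. With upper-quartile factors the lowest CD library was at 1121 CPM and the highest HFD library at 1200, and with total counts alone they were at 1177 and 1185, so the groups overlapped under both. As a share of all counts, Abcc8 took 0.118% to 0.146% in CD libraries and 0.113% to 0.118% in HFD libraries. The interval reached past 0 without CD replicate 1 (−0.44 to 0.00962) and without CD replicate 4 (−0.38 to 0.0316), and stayed below 0 without HFD replicate 3 (−0.39 to −0.00334). Abcc8 varied little between mice, with a coefficient of variation of 8.1% on CD and 4.02% on HFD, beside medians of 12.02% and 15.41% over the 3448 genes with a mean of at least 50 CPM.

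Kcnj11, the Kir6.2 pore subunit, showed no such separation. It was at 161.1, 154.8, 242.8 and 212.6 CPM in CD replicates 1 to 4, and at 157.0, 215.6 and 173.0 in HFD replicates 2 to 4. The HFD libraries all lay inside the CD range, and both replicate 3 libraries were the highest of their group. The means were 192.8 ± 42.2 (SD, n = 4) and 181.9 ± 30.3 (SD, n = 3) CPM. For Kcnj11 the log2 fold change was −0.0851 (SE 0.186, interval −0.502 to 0.332, edgeR quasi-likelihood adjusted p = 0.95), and the interval of the ratio was 0.706 to 1.26. Kcnj11 varied more between mice than Abcc8, with a coefficient of variation of 21.9% on CD and 16.7% on HFD.

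Because both subunits enter the same channel, their ratio was formed within each library, which removes library size. There were 8.3, 8.84, 4.9 and 6.81 Abcc8 reads per Kcnj11 read in CD replicates 1 to 4 and 7.46, 5.09 and 6.83 in HFD replicates 2 to 4. Per kilobase of the longest annotated transcript (4877 bases for Abcc8 and 3142 for Kcnj11) these were 5.35, 5.7, 3.16 and 4.39 on CD and 4.81, 3.28 and 4.4 on HFD. Abcc8 was thus the more abundant transcript in 7 of 7 libraries, and the lowest ratio of each diet was that of replicate 3. The log2 ratio averaged 2.81 ± 0.384 (SD, n = 4) in CD and 2.67 ± 0.289 (SD, n = 3) in HFD libraries. The difference of −0.141 had an exact two-sided permutation p of 0.629 over the 35 divisions of the libraries, of which 0.0571 is the smallest possible. Without HFD replicate 3 the difference was 0.0219. The 3 HFD ratios lay within the range of the 4 CD ratios. With a smallest possible p of 0.0571, the permutation test cannot decide whether the diets differ in this ratio.

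**Figure D2:**
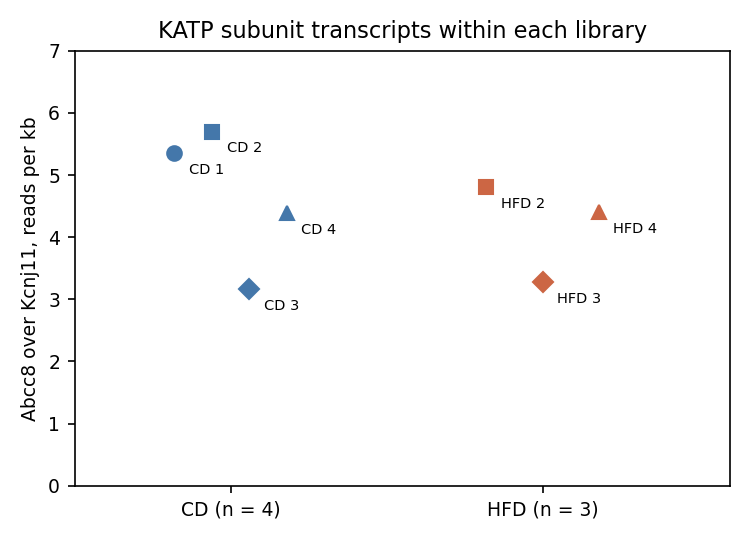
Ratio of Abcc8 to Kcnj11 reads, each per kilobase of its longest annotated transcript, in each library, on an axis that starts at 0. The 4 CD libraries span 3.16 to 5.7 and contain the 3 HFD libraries, which span 3.28 to 4.81.

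The genes whose pattern over the 7 libraries was nearest to that of Abcc8, among 3448 genes with a mean of at least 50 CPM, were Ptov1, Abhd16a and Sec16a. Their root mean square distances on the centred log2 scale were 0.0401, 0.0471 and 0.0478. For Kcnj11 they were Pcdhga5 (0.0959), Chmp1a (0.101) and F11r (0.101). Kcnj11 itself was at a distance of 0.303 from Abcc8, which placed it 2401st in order from Abcc8, and Abcc8 was 1560th in order from Kcnj11. By this measure the KATP subunits were not close over these mice. The distance also grows with how much a gene varies, and Kcnj11 varied more than Abcc8, so it does not separate pattern from spread.

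All 4 genes listed as partners of the KATP channel were tested. They are Rapgef4 (Epac2, a cAMP sensor), Ank2 (ankyrin-B, a membrane scaffold that in mouse β-cells binds Kir6.2), Stx1a (syntaxin 1A, of the exocytotic machinery) and Ak1 (an adenylate kinase that interconverts adenine nucleotides). Of these 4, 0 had an unadjusted p under 0.05, with log2 fold changes of 0.22, −0.398, −0.0174 and 0.265. HFD replicate 3 was the highest library for Rapgef4 (201.4 CPM) and Ak1 (59.7 CPM) and the lowest for Ank2 (33.5 CPM). Without it the log2 fold changes were −0.0768 for Rapgef4 and −0.205 for Ak1, both of the opposite sign, and −0.155 for Ank2.

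Among the background channels, Kcnk16 and Kcnk3 had opposite signs. Kcnk16 encodes TALK-1, a K2P channel found mainly in islet cells, where in mice it limits calcium influx and second-phase insulin release. It was at 119.6, 161.2, 142.5 and 170.8 CPM in CD replicates 1 to 4 and at 179.8, 144.0 and 173.6 in HFD replicates 2 to 4. The lowest library was CD replicate 1 and the highest HFD replicate 2, and the groups overlapped. The means were 148.5 ± 22.6 (SD, n = 4) and 165.8 ± 19.1 (SD, n = 3) CPM. For Kcnk16 the log2 fold change was 0.159 (SE 0.15, interval −0.178 to 0.495, edgeR quasi-likelihood adjusted p = 0.919), a ratio of 1.12 with an interval of 0.884 to 1.41.

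Kcnk3 encodes TASK-1, an acid-sensitive K2P channel that also contributes background current in islet cells, and had the largest fold change of the 7. It was at 17.8, 15.98, 9.96 and 12.8 CPM in CD replicates 1 to 4 and at 8.34, 3.66 and 7.22 in HFD replicates 2 to 4. Every HFD library was below every CD library under each of the 4 scalings tried. The nearest pair was CD replicate 3 and HFD replicate 2, whose 95% counting intervals of 8.69 to 11.35 and 6.88 to 10.03 CPM overlapped. The counts behind these values were 212, 179, 222 and 181 reads on CD and 113, 40 and 104 on HFD. The lowest value was that of HFD replicate 3, the library with the fewest genes counted, and its part in the difference is shown by leaving it out. With all libraries the log2 fold change was −1.14 (SE 0.478, interval −2.21 to −0.0654, edgeR quasi-likelihood adjusted p = 0.854), and without HFD replicate 3 it was −0.87 (SE 0.335, interval −1.6 to −0.138, adjusted p = 0.669). The upper end of the interval passed 0 on leaving out CD replicate 1 (to 0.303), CD replicate 2 (0.157), CD replicate 4 (0.128) or HFD replicate 4 (0.0981), with the fold change itself still below 0. The means were 14.1 ± 3.46 (SD, n = 4) and 6.41 ± 2.44 (SD, n = 3) CPM, a fitted ratio of 0.454 with an interval of 0.216 to 0.956. The exons of Kcnk3 overlap Gm9899 on the opposite strand, which had 0 to 5 counts per library.

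In bulk RNA of sorted cells, fewer cells that express a gene and less RNA of it per cell cannot be told apart. The values of Abcc8 and Kcnk3 were lower in HFD libraries, where the summed β-cell markers, mostly Ins1 and Ins2, were higher. Of the 10 β-cell markers taken singly, the log2 fold change was above 0 for 6 and below 0 for 4. Among markers of other islet cells it was below 0 for every one tested. These were 4 α-cell (median −0.35), 4 δ-cell (median −0.505) and 2 PP-cell markers (median −0.665), beside −0.0776 over all genes tested. In each of these 3 lists, 0 markers had an unadjusted p under 0.05 by edgeR's quasi-likelihood test. The α-cell sums of the diets overlapped, at 352–615 CPM on CD and 282–428 on HFD. Gcg, the glucagon gene, was at 71.9, 281.7, 297.5 and 72.2 CPM on CD and 71.2, 67.3 and 147.2 on HFD, and Sst, the somatostatin gene of δ-cells, ranged from 357.1 to 1063 (CD) and from 359.8 to 563 (HFD). CD replicates 2 and 3 had the highest Gcg and Sst. For both Abcc8 and Kcnk3, CD replicate 2 was the second highest of the 7 libraries and CD replicate 3 the lowest of the CD group. The part of these other islet cells in the differences was not tested.

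Kcnh6 and Kcnma1 represent the channels that repolarise the cell. Kcnh6 encodes a voltage-gated channel of the ether-a-go-go related (Erg) family, whose loss in mice and people impairs insulin secretion. It was at 67.2, 61.5, 66.8 and 87.5 CPM in CD replicates 1 to 4 and at 52.9, 68.6 and 72.5 in HFD replicates 2 to 4. The groups overlapped, with the lowest library on HFD and the highest on CD. The means were 70.8 ± 11.5 (SD, n = 4) and 64.7 ± 10.4 (SD, n = 3) CPM, and the log2 fold change was −0.13 (SE 0.177, interval −0.528 to 0.269, edgeR quasi-likelihood adjusted p = 0.929).

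Kcnma1 encodes the pore of the BK channel, which opens on depolarisation together with a rise in calcium and shortens the action potential. It was the most even of the 7 on CD, at 53.6, 51.9, 59.4 and 53.6 CPM in replicates 1 to 4, a coefficient of variation of 6.05%. On HFD it was at 62.5, 46.3 and 47.3 CPM in replicates 2 to 4. The HFD libraries lay on both sides of the CD range. The log2 fold change was −0.0708 (SE 0.164, interval −0.439 to 0.298, edgeR quasi-likelihood adjusted p = 0.953). The interval of the ratio was 0.737 to 1.23, and for Kcnh6 it was 0.693 to 1.2.

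Kcnj6 encodes Kir3.2 (GIRK2), an inward rectifier opened by G protein βγ subunits when inhibitory receptors such as those for adrenaline or somatostatin are active. Its level was low and uneven. It was at 6.71, 1.25, 3.86 and 8.22 CPM in CD replicates 1 to 4 (80, 14, 86 and 116 reads) and at 9.3, 0 and 7.43 in HFD replicates 2 to 4 (126, 0 and 107 reads). The 0 was in HFD replicate 3, where 3 counts would be 0.275 CPM, and this library was at 0 for 8.55% of well-covered genes. The log2 fold change was 0.156 (SE 1.27, interval −2.69 to 3.0, edgeR quasi-likelihood adjusted p = 0.987), and without HFD replicate 3 it was 0.723. At this spread neither direction could be assigned. Kcnma1 and Kcnj6 exons also overlap opposite-strand genes, 4930519K11Rik and Gm41505, which were not analysed here.

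**Figure D3:**
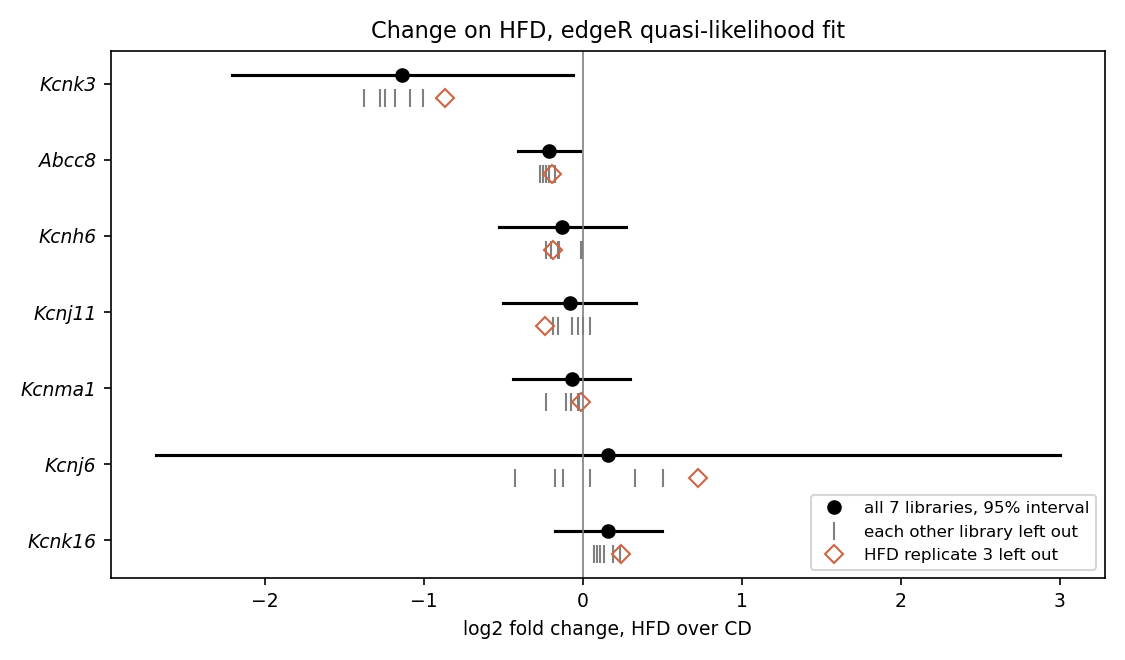
Log2 fold change of HFD over CD for each of the 7 channel genes, with the 95% interval of edgeR's quasi-likelihood fit (black, CD n = 4, HFD n = 3). Grey ticks give the value with each other library left out and open diamonds that without HFD replicate 3. The intervals of Abcc8 (−0.409 to −0.0216) and Kcnk3 (−2.21 to −0.0654) lie below 0 before adjustment, and that of Kcnj6 spans −2.69 to 3.0.

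Levels of different genes were compared per kilobase of the longest annotated transcript, as mean CPM per kb over the 7 libraries. Abcc8 was first at 257.6 (range 225.1 to 296.8), above 99.3% of all genes tested. Kcnk16 followed at 73.3 (56.2 to 84.5, above 95.9%) and Kcnj11 at 59.9 (49.3 to 77.3, above 94.5%). The order of Kcnk16 and Kcnj11 held in 5 of 7 libraries and their ranges overlapped, so these neighbours did not differ beyond their spread. Abcc8 was above Kcnk16 in 7 of 7 libraries with no overlap, by 3.51 times in the means.

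Below them, Kcnh6 stood at 20.2 CPM per kb (15.7 to 26.0) and was above 79.3% of genes tested. It was under Kcnj11 in 7 of 7 libraries by 2.96 times and above Kcnma1 in 7 of 7 by 4.57 times. Kcnma1 (4.42, 3.83 to 5.17), Kcnk3 (2.84, 0.961 to 4.67) and Kcnj6 (1.45, 0 to 2.57) formed the low end, above 38.0%, 27.7% and 16.9% of genes tested. Kcnma1 was above Kcnk3 in 6 of 7 libraries and Kcnk3 above Kcnj6 in 5 of 7, and both pairs overlapped. The order of the 7 genes was the same with the length of all exons joined, which lowered Kcnj6 to 0.688, Abcc8 to 155 and Kcnma1 to 3.15.

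**Figure D4:**
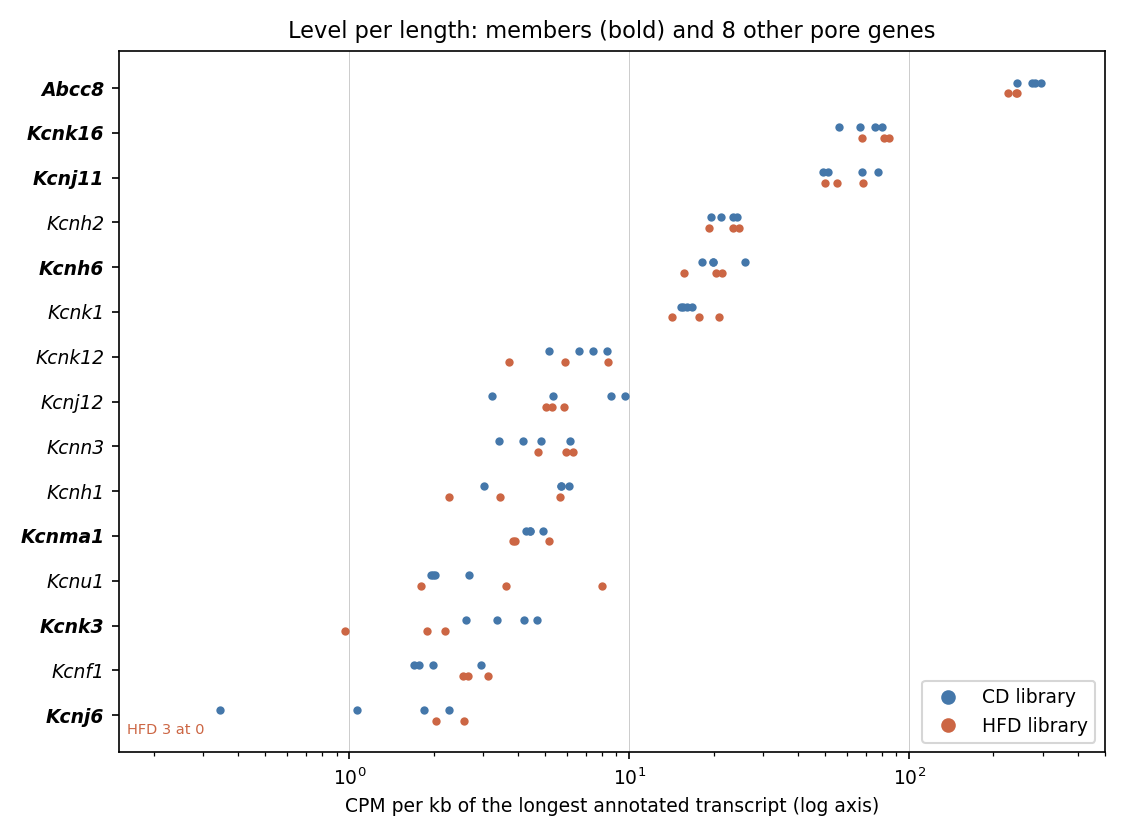
CPM per kb of the longest annotated transcript on a log axis, one point per library, for the 7 channel genes (bold) and 8 other pore genes of high mean level, with CD in blue and HFD in red. Abcc8 lies apart at 225.1 to 296.8, Kcnk16 and Kcnj11 overlap below it, and the HFD points of Abcc8 and of Kcnk3 all lie left of their CD points.

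Expressed as a share of the CPM per kb of 77 potassium channel pore genes in a library, the 6 pore genes of the set took 60.8% ± 2.72 (SD, n = 4) in CD libraries and 62.3% ± 1.42 (SD, n = 3) in HFD libraries. Kcnk16 took 26.3% ± 3.22 and 29.9% ± 3.87, and Kcnj11 took 22.96% ± 3.45 and 22.2% ± 3.35. Kcnh6 took 7.9% ± 0.93 and 7.35% ± 1.12. Kcnk3 took 1.43% ± 0.457 and 0.647% ± 0.254, so the gene with the largest fold change of the 7 was a small part of the pore transcripts on either diet. Outside the set the largest shares were those of Kcnh2 (8.43% ± 1.28 and 8.62% ± 1.05), which encodes Erg1 and is a relative of Kcnh6, and of Kcnk1 (6.05% ± 0.697 and 6.79% ± 1.39), a K2P gene.

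The remaining potassium channel genes were few at these depths. Of 71 other pore genes in the table, 27 had no count in any library and 25 were tested. Among the 25, the log2 fold change was above 0 for 9 and below 0 for 16 (median −0.244), and 1 had an unadjusted p under 0.05, where 5.77% of all genes tested had one. By family, 1 of 13 other inward rectifiers, 3 of 12 other K2P genes, 16 of 39 other voltage-gated genes and 5 of 7 other calcium- or sodium-activated genes were tested. Of 24 auxiliary subunit genes 11 were tested, 3 above 0 and 8 below, and 0 of these had an unadjusted p under 0.05.

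Among the other pore genes of high level, Kcnh2 (22.3 CPM per kb) and Kcnk1 (16.7) had log2 fold changes of 0.0195 and 0.148. Kcnk12, Kcnj12, Kcnn3, Kcnh1 and Kcnf1 had log2 fold changes of −0.195, −0.319, 0.286, −0.436 and 0.401. Kcnu1, a Slo-family gene known from sperm, was at 1.05 (interval −0.149 to 2.25), where HFD replicate 3 was at 28.2 CPM and the other libraries at 6.39 to 12.9, and without that library the value was 0.316 (interval −0.527 to 1.16). Low-level genes had larger but uncertain values. Kcnh8 and Kcnd1 were at 1.2 and 0.759, and Kcnn4, Kcnh5 and Kcnk13 were at −3.02, −2.52 and −1.92 with CD replicate 3 the highest library for each of the last 3.

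Among auxiliary subunits the highest levels were those of Kcnmb2, a BK subunit that inactivates the channel (28.9 CPM per kb), Kcnip1, a calcium-binding subunit of Kv4 channels (19.6), and Amigo1, a channel partner with an immunoglobulin domain (12.3). Their log2 fold changes were −0.226, 0.0671 and −0.0465. Kcnmb2 was at 76.7 to 77.4 CPM in the HFD libraries and at 72.7 to 124.9 in the CD libraries, and without CD replicate 3 its log2 fold change was −0.0303. Kcnab3 (6.4 CPM per kb) was at 0 in HFD replicate 3 and at 13.7 to 27.8 CPM in the other libraries, with a log2 fold change of −1.05 (−0.486 without that library), and Dpp6 (2.11 CPM per kb) had a log2 fold change of −0.0705.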

How the data were processed

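The authors deposited raw read counts by gene symbol in a single table, not normalized, with a column for each library. A stranded mRNA kit was used. Their processing notes name mm10 and edgeR. Not given in the sources used here were the aligner, the counting program and whether strand was used. Of 24062 rows, 27 held dates in place of symbols (at most 0.155% of a library's counts) and were left out. Some items that the naming rule covers are not reported here. Gene symbols matched GENCODE M21 (GRCm38) for 98.4% of genes, and positions, lengths and coding sequences come from it.

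Counts were analysed in R 4.3.3 with edgeR 4.0.16 (filterByExpr, TMM, glmQLFit, glmQLFTest, no covariates). Intervals used the t distribution with the total degrees of freedom of the fit. Marker sums were scaled by total counts. Shares and distances between patterns are descriptions, the latter with an added count of 0.5. The pipeline was tested on simulated data, where at adjusted p 0.05 and over 11972 genes it recovered 0%, 20%, 58% and 72% of genes changed by log2 0.5, 1, 2 and 3. Counting intervals cover counting error only.

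The genes and lists were chosen with earlier results of these data known. Genes named outside the set were the 10 pore genes of highest level, the 5 of lowest p in each direction, the 5 auxiliary and 4 depolarising genes of highest level, all KATP partners, and the 3 genes nearest to Abcc8 and to Kcnj11. Alternatives were other scalings and filters, DESeq2 1.42.0, the likelihood ratio test, limma-voom (3.58.1), the replicate block, exon union length and each library left out. Quality weights, and leaving out libraries for the other channels, were chosen after seeing the data.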

Additional observations from a re-analysis of the deposited data

How the results depend on the processing

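Over 17 alternatives to the edgeR fit, 0 of the 7 channel genes passed an adjusted p of 0.05, with Abcc8 at 0.272 to 0.994 and Kcnk3 at 0.235 to 0.994. Abcc8 stayed below 0 (−0.272 to −0.174, unadjusted p under 0.05 in 12 of 17), as did Kcnk3 (−1.38 to −0.87, 10 of 17), Kcnh6 (−0.244 to −0.00963) and Kcnma1 (−0.231 to −0.00698), and Kcnk16 stayed above 0 (0.065 to 0.252). Single libraries moved these small values several-fold. Kcnh6 was −0.00963 without HFD replicate 2 and −0.0101 without CD replicate 4, Kcnma1 was −0.231 without HFD replicate 2 and −0.011 without HFD replicate 3, and Kcnk16 was 0.0691 without CD replicate 1. The number of the 7 with an unadjusted p under 0.05 was 2 by the main test, 1 with upper-quartile factors, the likelihood ratio test, limma-voom and the replicate block, 0 with no filter, and 0 to 2 with each library left out. The upper end of the Abcc8 interval passed 0 with upper-quartile factors (0.0374) and no filter (0.0244), and that of Kcnk3 with no filter (0.0586) and the block (0.395). Kcnj11 ranged from −0.242 to 0.0412 with each library left out, reaching 0.0412 without CD replicate 3 and 0.000967 without HFD replicate 2. Kcnj6 was −1.26 by limma-voom and −0.501 with the block, and ranged from −0.43 to 0.723 with each library left out. It was −0.177 without CD replicate 2, −0.43 without HFD replicate 2 and −0.125 without HFD replicate 4. The log2 ratio of Abcc8 to Kcnj11 differed by −0.315 to 0.0219. The cause of these changes was not tested. The labels do not say whether replicate numbers pair the samples. Deviations from the group means correlated at −0.00514, −0.0125 and 0.109 for same-numbered libraries and at −0.0869 to 0.0482 for differently numbered ones. With only 4 and 3 libraries behind the means, these values cannot decide whether the samples were paired. With the block, 375 genes in place of 713 had an unadjusted p under 0.05. Over all genes, 137 passed by DESeq2, 23 by the likelihood ratio test, 27 with quality weights and 0 to 2 with each library left out (2 without HFD replicate 3). Unadjusted, 1319 passed by DESeq2, 1113 with quality weights and 474 to 1119 with each library left out. Of the other potassium channel genes, 1 to 4 had an unadjusted p under 0.05 with each library left out, 4 without HFD replicate 4. Kcnk3 and Kcnj6 had the fewest reads of the 7, with 40 to 222 and 0 to 126 per library. Their 95% counting intervals did not all overlap within a diet. For Kcnk3 they were 15.47 to 20.35 CPM in CD replicate 1 and 8.69 to 11.35 in CD replicate 3. For Kcnj6 they were 0.683 to 2.1 CPM in CD replicate 2 and 6.8 to 9.86 in CD replicate 4.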

Other observations

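The depolarising side of the β-cell membrane was covered by a list of 16 genes for sodium, TRP, Nalcn and HCN channels, of which 14 were tested. The log2 fold change was above 0 for 5 and below 0 for 9 (median −0.303). By edgeR's quasi-likelihood test 1 of the 14 had an unadjusted p under 0.05, where 5.77% of all genes tested had one. The 1 depolarising gene was Scn8a, which encodes a voltage-gated sodium channel and was named after its values were seen. It was at 32.5, 30.2, 45.4 and 40.3 CPM in CD replicates 1 to 4 and at 21.8, 13.9 and 22.6 in HFD replicates 2 to 4. Every HFD library was below every CD library, which held for 1 of the 14 and for 5.37% of all genes tested. The log2 fold change was −0.931 (SE 0.264, interval −1.52 to −0.339, edgeR quasi-likelihood adjusted p = 0.731). DESeq2 gave an adjusted p of 0.0308, so this call depends on the tool. HFD replicate 3 was the lowest library, and without it the log2 fold change was −0.759 (interval −1.26 to −0.252, edgeR quasi-likelihood adjusted p = 0.54).

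Nalcn, a sodium leak channel also named after its values were seen, was at 34.9 to 40.4 CPM on CD and at 40.7 to 56.7 on HFD. Every HFD library was thus above every CD library, as for 498 of the 12354 genes tested and 1 of the 14 depolarising genes tested. Its log2 fold change was 0.317 (interval −0.0917 to 0.725), and 0.135 without HFD replicate 3. The depolarising genes of highest level per kb were Trpm5, a calcium-activated cation channel (37.7 CPM per kb), Trpc1 (9.03), Hcn2 (7.29) and Hcn3 (6.64). Their log2 fold changes were 0.0648, −0.381, −0.242 and −0.503, and 0 of these 4 had an unadjusted p under 0.05 by edgeR's quasi-likelihood test. Trpc1 was at 16.3 CPM in HFD replicate 3 and at 41.2 to 48.8 in the other libraries, and without that library its log2 fold change was −0.0566. Among auxiliary potassium channel subunits, Kcnab2 was also named after its values were seen. Every HFD library (8.05 to 8.97 CPM) was above every CD library (2.65 to 5.67 CPM), which held for 1 of the 11 auxiliary genes tested. Its log2 fold change was 1.04 (interval −0.247 to 2.33).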
